A study of Mus musculus with 18 samples.

Results

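The contrast described here is the genotype by arthritis interaction in mouse forepaws, that is, the difference between the arthritis effect in Sema3b-/- mice and the arthritis effect in WT mice. For each gene it was computed on log2 of the value plus 1 as (Sema3b-/- arthritis minus Sema3b-/- control) minus (WT arthritis minus WT control). It used all 18 of the 18 libraries of the series. The mice were of strain C57BL/6 and fell into 4 groups, with 4 libraries each of WT and Sema3b-/- controls, and 5 libraries each of WT and Sema3b-/- arthritis. CEL-seq, the assay used, counts a tag near the 3' end of each transcript after pooling and linear amplification. Neither the arthritis model, nor the age or sex of the mice, nor the way the Sema3b allele was made is given in the labels, and that each library is a separate animal is not said in so many words. The p-values below therefore measure the spread between these libraries.

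Semaphorins are secreted or membrane-bound ligands that act on neuropilin and plexin receptors and steer the shape and movement of neurons, endothelial cells, immune cells and fibroblasts. Sema3b encodes a secreted class 3 semaphorin. Inflamed joints are known for chemokines that draw in neutrophils and monocytes, proteases that cut cartilage matrix, interferon-stimulated genes and antigen presentation by MHC class II. An interaction above 0 means that arthritis minus control was the larger in Sema3b-/- forepaws, and a value below 0 that it was the larger in WT forepaws.

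Total reads per library ran from 1732783 to 19464892. Sema3b (chromosome 9, 107597674 to 107609229, minus strand, mm10) separated the genotypes. Its normalized counts were 44.2 to 67.5 (control) and 23.7 to 66.7 (arthritis) in WT libraries, against 0 to 7.2 and 0 to 3.49 in Sema3b-/- libraries, with no overlap of genotypes. Its interaction was -0.29 (SE 0.81). Xist, the RNA of the inactive X chromosome, and 4 Y-linked genes put the libraries at 4 female in WT control, 2 female and 2 male in Sema3b-/- control, 1 female and 4 male in WT arthritis, and 4 female and 1 male in Sema3b-/- arthritis. The sex ratio thus differs between the groups, and Xist had an interaction of 6.66 (SE 2.14) and Ddx3y one of -9.83 (SE 2.83). Mitochondrially encoded RNAs took 15.7 to 24.1% of the values in Sema3b-/- arthritis and 18.3 to 39.4% in WT arthritis. The highest was WT arthritis replicate 1, which is also the only female library of that group. Among the arthritis libraries, WT replicate 5 and Sema3b-/- replicates 1 and 2 have titles of another form than the rest. The titles of the control libraries all begin with MI, a form that no arthritis library has, so title form and treatment cannot be told apart. Medians of gene lists with a term for sex are given beside the others where they differ by over 1.5 times or in sign. For a single gene such values are given in part, so a gene without one may also have moved.

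No gene passed the test of the interaction. With limma on 13809 of the 18585 genes, 0 genes (0%) had a Benjamini-Hochberg adjusted p under 0.05, and the smallest adjusted p was 0.449. At an unadjusted p under 0.05 there were 663 genes (4.8%), of which 336 (2.43%) were above 0 and 327 (2.37%) below. edgeR on whole reads recovered from the table also called 0 genes, with 671 at an unadjusted p under 0.05 and a smallest adjusted p of 0.401. DESeq2 on the same reads called 8 genes, with 760 at an unadjusted p under 0.05. These were Per1, Odf3l2, Nrep, Tmem100, Lrrn4cl and Errfi1 below 0, and Ch25h and Lpar6 above 0, with DESeq2 adjusted p from 0.0135 to 0.0349.

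The interaction was centred on 0 across genes. Its median was 0.01, its quartiles were -0.25 and 0.31, and 50.9% of genes were above 0. The median SE was 0.38, and the median 95% interval reached 0.79 to either side. That interval was narrower than 1 to either side in 62.9% of genes and narrower than 2 in 86.9%. For the rest the interval was wider, so a missed threshold does not show that the arthritis effects were equal. Of the 1203 genes with an estimate beyond 1 in either direction, 265 had an unadjusted p under 0.05. Across genes, the arthritis effects of both genotypes, which share no library, had a Pearson r of 0.644, and 74.2% had the same sign in both (a description across genes, which are not independent replicates). The spread between libraries differed by group, with a median SD on the log2 scale of 0.25 in WT control, 0.42 in Sema3b-/- control, 0.41 in WT arthritis and 0.34 in Sema3b-/- arthritis.

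**Figure D1:**
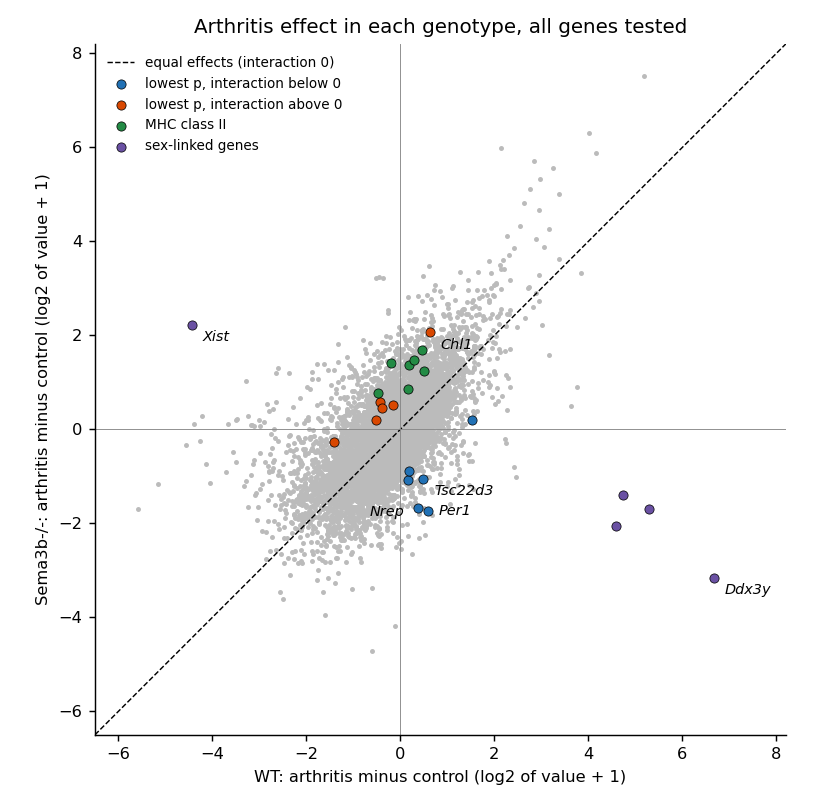
Arthritis minus control in WT (x axis) and in Sema3b-/- forepaws (y axis), both on log2 of value plus 1, for the 13809 genes tested. Points on the dashed line have an interaction of 0; the 5 sex-linked genes lie farthest from it, MHC class II genes lie above it, and the 12 genes named by lowest p lie on both sides.

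Among the genes of lowest unadjusted p below 0, Per1, a repressor of the circadian clock that glucocorticoids also induce, had an interaction of -2.32 (SE 0.45, 95% interval -3.27 to -1.37). Its normalized counts were 103, 87.5, 72.2 and 61.4 in WT control and 104, 109, 121, 142 and 127 in WT arthritis. In Sema3b-/- control they were 101, 188, 245 and 213, and in Sema3b-/- arthritis 41.5, 35.1, 103, 82.8 and 32. Per1 was thus the higher in arthritis in WT and the lower in arthritis in Sema3b-/- on average (0.58 and -1.74). The arthritis groups of the genotypes did not overlap, while replicate 1 of Sema3b-/- control lay inside the WT range. Per1 and the other genes of lowest p were chosen by the p of the interaction, so groups that lie apart follow in part from that choice. The share of all genes with groups that do not overlap was not computed. The unadjusted p was 6.9e-05 and limma's adjusted p was 0.449.

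Tsc22d3, which encodes the glucocorticoid-induced leucine zipper GILZ, had the same order of group means as Per1. It measured 384, 432, 452 and 453 in WT control and 534, 755, 702 and 566 in Sema3b-/- control. In arthritis it measured 600, 789, 364, 505 and 904 in WT and 290, 186, 369, 503 and 254 in Sema3b-/-. All Sema3b-/- control libraries were above all WT control libraries, and the arthritis groups overlapped. The interaction was -1.55 (SE 0.37), with an adjusted p by limma of 0.658.

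Errfi1 encodes MIG6, a feedback inhibitor of the EGF receptor. Its counts were 214, 208, 203 and 182 in WT control, and 565, 411, 869, 517 and 622 in WT arthritis. In Sema3b-/- they were 247, 264, 268 and 223 in control and 203, 250, 265, 392 and 354 in arthritis. WT arthritis lay above every other group without overlap, and in Sema3b-/- arthritis and control overlapped. The arthritis effect was 1.52 (SE 0.20) in WT and 0.19 (SE 0.20) in Sema3b-/-, and the interaction was -1.33 (SE 0.28, adjusted p 0.449 by limma).

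Tmem100, a transmembrane protein that depends on BMP signalling in endothelium, and Lrrn4cl, a leucine-rich repeat membrane protein, stood out in a single group. Tmem100 measured 298, 255, 280, 374 and 343 in Sema3b-/- arthritis, against 513 to 973 over all 13 other libraries. Lrrn4cl measured 84.2, 72, 98.5, 101 and 117 in Sema3b-/- arthritis, against 168 to 333 in the others. For both genes the Sema3b-/- arthritis group lay below every library of the other 3 groups. For Lrrn4cl the Sema3b-/- control libraries (168 to 180) also lay below WT control (203 to 231). The interaction was -1.23 (SE 0.26) for Tmem100 and -1.07 (SE 0.23) for Lrrn4cl, each with an adjusted p of 0.449 by limma.

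Nrep encodes P311, a small protein of regenerating neurons and of myofibroblasts. It measured 637, 669, 781 and 671 in WT control, and 906, 1989, 2202 and 986 in Sema3b-/- control. The arthritis values were 491, 1141, 1835, 814 and 685 in WT and 316, 372, 481, 403 and 701 in Sema3b-/-. The 2 male libraries of Sema3b-/- control, replicates 2 and 3, held its highest values. With a term for sex its interaction moved from -2.06 to -0.93, and the part of sex in the estimate was not tested further.

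Above 0, Lpar6, a receptor for lysophosphatidic acid, had the lowest p. Its counts were 192, 217, 221 and 207 in WT control and 142, 114, 91.4 and 119 in Sema3b-/- control, with no overlap. In arthritis they were 148, 167, 123, 143 and 200 in WT and 172, 170, 190, 156 and 183 in Sema3b-/-, which overlapped. The genotypes thus lay apart in control and overlapped in arthritis, and the interaction was 1.03 (SE 0.21, adjusted p 0.449 by limma). Neat1, the long noncoding RNA that scaffolds nuclear paraspeckles, had the same order of groups in control. It measured 3333 to 3708 in WT control and 1696 to 2594 in Sema3b-/- control. Arthritis libraries held 2216, 1399, 861, 1130 and 1324 in WT and 2043, 1512, 2121, 1654 and 1786 in Sema3b-/-. Its interaction was 1.14 (SE 0.29), and 0.33 over the female libraries alone.

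Chl1, a neural cell adhesion molecule of the L1 family, was higher in arthritis in both genotypes without overlap. It measured 151 to 173 in WT control and 183, 191, 368, 315 and 233 in WT arthritis. In Sema3b-/- it measured 150, 76, 92.6 and 237 in control and 476, 629, 639, 343 and 633 in arthritis. The arthritis effect was 0.62 (SE 0.29) in WT and 2.06 (SE 0.29) in Sema3b-/-, and the interaction was 1.44 (SE 0.41). Paxbp1, a partner of PAX3 and PAX7, measured 92.5 to 124 in WT arthritis against 149 to 188 in Sema3b-/- arthritis, with an interaction of 0.86 (SE 0.21). Fchsd2, an F-BAR protein of endocytosis, measured 310 to 366 and 390 to 491 in the same groups (interaction 0.68, SE 0.19). D4Wsu53e, a name that RefSeq lists as a synonym of Rsrp1, measured 800.2 to 1093 and 1123 to 1549 (0.72, SE 0.18). In these 3 genes the arthritis groups of the genotypes did not overlap, while the control groups did. As for the other genes chosen by low p, this follows in part from the choice. All 12 genes kept the sign of their interaction in all 32 alternative analyses. These fits reuse the libraries by which the genes were chosen, so a kept sign also follows in part from the choice and is no separate support.

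**Figure D2:**
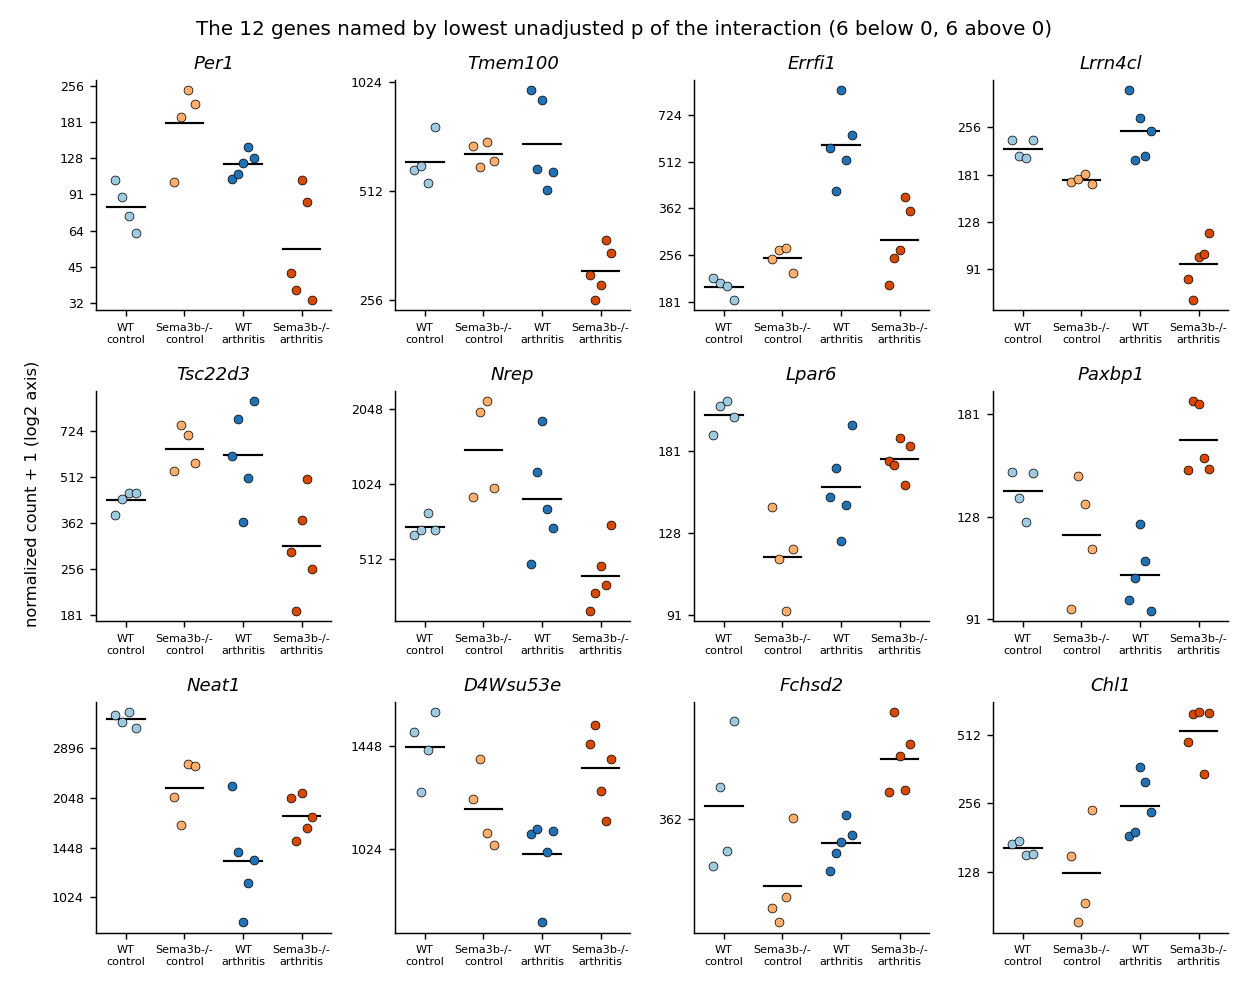
Normalized count plus 1 (log2 axis) of the 12 genes in each library, with 1 point per library and a bar at the mean on the log2 scale. Tmem100 and Lrrn4cl are lowest in the 5 Sema3b-/- arthritis libraries, Errfi1 is highest in the 5 WT arthritis libraries, and Neat1 is highest in the 4 WT control libraries.

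Odf3l2 and Ch25h, 2 of the 8 genes that DESeq2 called, are expressed at low levels and were chosen after their values were seen. Odf3l2 had an interaction of -4.07 (SE 0.89) by limma. It measured 12.1, 34.6, 29.7 and 31.2 in Sema3b-/- control, and 2.59, 0, 0, 0 and 0.695 in Sema3b-/- arthritis, where 3 libraries held no read. In WT it measured 3.32 to 11.3 in control and 2.3 to 24.9 in arthritis, which overlapped. Ch25h encodes cholesterol 25-hydroxylase, an interferon-inducible enzyme. Its WT libraries held 18.8 to 25.3 in control and 9.16 to 25.1 in arthritis, and its Sema3b-/- libraries 1.19 to 8.39 in control and 20.8 to 60.1 in arthritis. Its interaction was 2.80 (SE 0.61), with an adjusted p of 0.483 by limma for each of these genes. Ch25h was at 1.81 with a term for sex and 1.94 over the female libraries, and Odf3l2 at -1.76 with a pseudocount of 10.

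MHC class II genes encode the chains that present peptides to CD4 T cells, the invariant chain Cd74 and the loading factor H2-DM, and they depend on the transactivator Ciita. All 7 members of the list were tested, and all 7 had an interaction above 0, beside 50.9% of all genes. For 5 of them (H2-Aa, H2-Ab1, H2-Eb1, Cd74 and Ciita) the unadjusted p was under 0.05, beside 2.43% of all genes in that direction; none passed after adjustment. The median interaction of the list was 1.19, against 0.01 over all genes. Its median arthritis effect was 0.18 in WT and 1.36 in Sema3b-/-. In bulk tissue, more cells that express these genes and more RNA per cell cannot be told apart.

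The promoters of H2-Aa and H2-Eb1 are shown because these genes had similar interactions and because both hold the Y box, an inverted CCAAT element known from class II promoters. Each stretch is the 110 bases before the RefSeq start (GRCm38.p6), 5′ to 3′ on the strand of the gene, with the letters TGATTGG in capitals. H2-Aa lies at chr17:34287824-34287933 on the minus strand and H2-Eb1 at chr17:34305757-34305866 on the plus strand.
H2-Aa: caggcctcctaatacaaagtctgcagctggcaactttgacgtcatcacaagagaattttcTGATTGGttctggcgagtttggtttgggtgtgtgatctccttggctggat
H2-Eb1: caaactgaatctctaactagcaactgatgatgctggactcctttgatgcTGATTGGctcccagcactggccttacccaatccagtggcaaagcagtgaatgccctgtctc
TGATTGG, searched on both strands of the 250 bases before the start, was found in 3 of the 4 list members with a RefSeq window here (H2-Aa, H2-Eb1 and H2-DMb1), and in 2265 of 27025 genes (8.38%). The match is a description of letters only.

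H2-Aa, the alpha chain of I-A, measured 4776, 6538, 4581 and 4559 normalized counts in WT control and 5665, 4537, 2316 and 3417 in Sema3b-/- control. With arthritis the counts were 3368, 5445, 8239, 10190 and 10138 in WT, and 12448, 11933, 8814, 19112 and 11006 in Sema3b-/-. The Sema3b-/- arthritis libraries lay above all Sema3b-/- control libraries, and WT arthritis spanned the control range. Its arthritis effect was 0.45 (SE 0.32) in WT and 1.70 (SE 0.32) in Sema3b-/-, giving an interaction of 1.25 (SE 0.45, unadjusted p 0.0132).

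H2-Eb1, the beta chain of I-E, had the same order. It measured 3171, 4264, 3077 and 3271 in WT control, and 3994, 2838, 1464 and 2338 in Sema3b-/- control. It measured 1901, 2994, 5356, 6404 and 6517 in WT arthritis, and 6302, 6624, 5578, 10690 and 6544 in Sema3b-/- arthritis. WT arthritis replicates 1 and 2 were the lowest of that group for H2-Aa, H2-Ab1 and H2-Eb1, and Sema3b-/- arthritis replicate 4 was the highest of all libraries for these genes. The interaction of H2-Eb1 was 1.19 (SE 0.48) and that of H2-Ab1 1.18 (SE 0.45).

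Ciita, the transactivator, had the lowest p of the list. It measured 47.5, 48.7, 41.3 and 50.3 in WT control, and 36.4, 36.3, 17.8 and 12 in Sema3b-/- control, with no overlap. Its arthritis counts were 31, 44.5, 33.3, 43.4 and 55.8 in WT and 57, 73.9, 54.3, 68 and 64.6 in Sema3b-/-. Its interaction was 1.61 (SE 0.40, 95% interval 0.76 to 2.45, unadjusted p 0.000858, adjusted p 0.658 by limma). Cd74, the invariant chain, had an interaction of 1.24 (SE 0.56), H2-DMa one of 0.70 (SE 0.49) and H2-DMb1 one of 0.74 (SE 0.36). The median of the list ranged from 0.90 to 2.05 over the 32 alternatives, with 1.38 with a term for sex and 1.39 without the 3 libraries of the other title form. All 7 members stayed above 0 with the term for sex, without those 3 libraries and with any 1 library left out. No fit left out WT arthritis replicates 1 and 2 together. With 1 library left out, the number with an unadjusted p under 0.05 ran from 3 (without WT control replicate 2 or Sema3b-/- control replicate 3) to 6, and it was 1 with library weights and a term for sex together. Of all genes, 517 to 854 had one with 1 library left out.

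**Figure D3:**
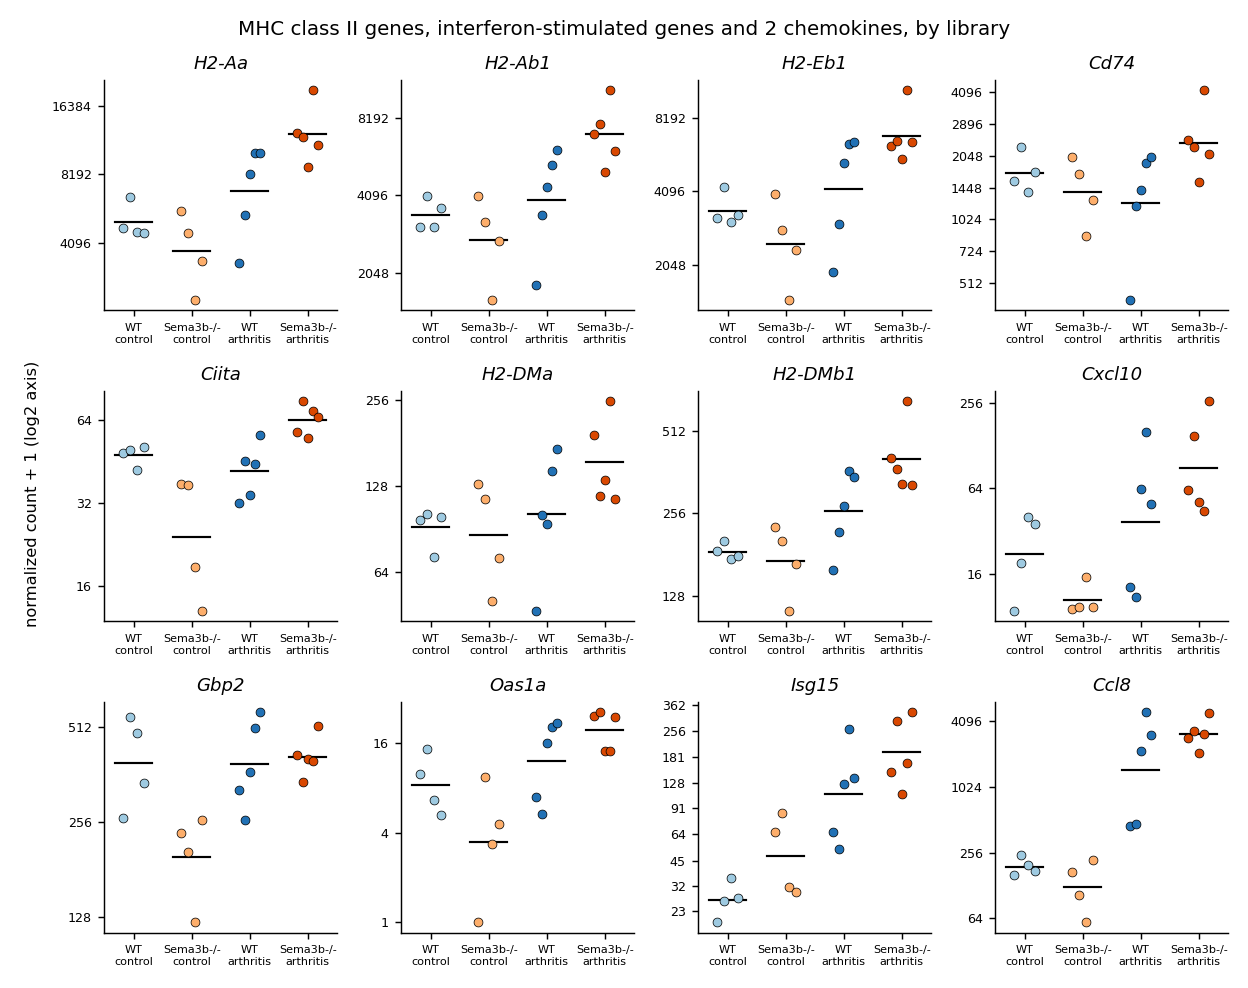
Normalized count plus 1 (log2 axis) by library for the 7 MHC class II genes, the interferon-stimulated genes Gbp2, Oas1a and Isg15, and the chemokines Cxcl10 and Ccl8, with a bar at the mean on the log2 scale. For H2-Aa, H2-Ab1 and H2-Eb1 the 5 Sema3b-/- arthritis libraries lie above the 4 Sema3b-/- control libraries, and the 5 WT arthritis libraries span the WT control range.

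Interferon-stimulated genes are induced through the interferon response element (ISRE) of their promoters. Of the 17 members, all tested, 15 were above 0, beside 50.9% of all genes. Of them 4 (Mx2, Oas1a, Oasl2 and Gbp2) had an unadjusted p under 0.05, beside 2.43% of all genes in that direction. The median interaction was 0.67, with a median arthritis effect of 0.69 in WT and 1.71 in Sema3b-/-. Gbp2, a guanylate-binding protein of host defence, had an interaction of 1.07 (SE 0.37). It measured 262, 549, 489 and 339 in WT control and 235, 204, 122 and 259 in Sema3b-/- control. These control groups did not overlap, but the nearest libraries were at 262 and 259. The share of all genes without such overlap was not computed. In the arthritis groups Gbp2 read 324, 259, 367, 509 and 569 in WT and 417, 343, 404, 400 and 514 in Sema3b-/-, which overlapped. Oasl2, of the oligoadenylate synthetase family, had an interaction of 1.31 (SE 0.52). Isg15, a ubiquitin-like protein, had one of -0.04 (SE 0.63), with an arthritis effect of 2.04 in WT and 2.00 in Sema3b-/-, and 0.70 with a term for sex.

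Stretches around an ISRE core (GAAA, any 2 bases, GAAA) are shown for genes of unlike interaction: Oas1a with 1.97 (SE 0.85), Cxcl10 with 2.33 (SE 1.02), Bst2 with 0.67 (SE 0.51) and Isg15. All 4 genes lie on the minus strand, and each stretch ends before the RefSeq start (GRCm38.p6). Capitals mark the match, or overlapping matches. The coordinates are chr5:120907526-120907564 for Oas1a, chr5:92349068-92349127 for Cxcl10, chr8:71537562-71537621 for Bst2 and chr4:156200850-156200909 for Isg15.
Oas1a: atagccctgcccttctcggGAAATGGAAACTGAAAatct
Cxcl10: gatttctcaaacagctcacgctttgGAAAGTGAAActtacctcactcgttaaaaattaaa
Bst2: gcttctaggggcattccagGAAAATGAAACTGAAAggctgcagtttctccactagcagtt
Isg15: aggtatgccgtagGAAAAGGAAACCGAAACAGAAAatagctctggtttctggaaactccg
This core was found on either strand of the 250 bases before the start in 8 of the 12 list members with a RefSeq window here, and in 936 of 27025 genes (3.46%). Genes with a large and with a small interaction both hold these letters. With a term for sex the interactions were 3.02 for Oas1a, 3.80 for Cxcl10 and 1.39 for Bst2.

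Oas1a and Mx2 are expressed at low levels, so their values rest on few reads. In WT, Oas1a measured 4.26 to 13.5 in control and 4.36 to 20.9 in arthritis. In Sema3b-/- it measured 0 to 8.38 in control and 13.1 to 24.6 in arthritis. The WT groups overlapped and the Sema3b-/- groups did not. The list median was 1.35 with a term for sex, with 17 of 17 members above 0, and 0.42 without WT arthritis replicate 2. With the term for sex 8 members had an unadjusted p under 0.05, beside 1109 of all 13809 genes. With 1 library left out, the number of members with one ran from 1, without WT control replicate 2, to 5. Of all genes, 517 to 854 had one in those fits.

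CXC chemokines, which draw in neutrophils (Cxcl1, Cxcl2, Cxcl5) or lymphocytes (Cxcl9, Cxcl10, Cxcl13), had a median of 1.88, the highest of the lists here. It was 1.15 without WT arthritis replicate 2 and 1.13 with a pseudocount of 10. All 10 members were tested and above 0, beside 8 of 10 with edgeR and 9 of 10 with DESeq2. Of them 3 (Cxcl10, Cxcl13 and Cxcl14) had an unadjusted p under 0.05, beside 2.43% of all genes in that direction. The median arthritis effect of the list was 1.57 in WT and 3.28 in Sema3b-/-. Cxcl5 measured 14.4, 2.71, 20.6 and 14.5 in WT control and 20.2, 12.8, 5.94 and 2.4 in Sema3b-/- control. In arthritis it measured 109, 8.72, 723, 668 and 489 in WT and 593, 1270, 654, 392 and 1013 in Sema3b-/-. WT arthritis replicate 2 lay within the control range, and replicate 1 lay between that range and the other arthritis libraries. The interaction of Cxcl5 was 2.29 with an SE of 1.5, so its 95% interval of -0.92 to 5.49 held 0. Over the fits with 1 library left out, 1 to 5 CXC chemokines had an unadjusted p under 0.05. Of all genes, 517 to 854 had one in these fits.

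Cxcl14, a chemokine expressed in skin and stroma, had a smaller error. It measured 1637, 1735, 1538 and 2002 in WT control, and 2015, 1670, 1389 and 1085 in Sema3b-/- control. The arthritis values were 889, 1118, 1740, 2379 and 3032 in WT and 3668, 3764, 3005, 3889 and 2772 in Sema3b-/-. WT arthritis lay on both sides of WT control, and Sema3b-/- arthritis lay above all control libraries. The interaction was 1.23 (SE 0.40, adjusted p 0.974 by limma). Cxcl13 overlapped between the arthritis groups, with 50.6 to 130 in WT and 34.9 to 233 in Sema3b-/-, and 2 Sema3b-/- control libraries held no read of it.

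CC chemokines, which draw in monocytes (Ccl2, Ccl7, Ccl8, Ccl12) and lymphocytes (Ccl5, Ccl19), were above 0 in 11 of 12 members tested of 13. The median interaction was 1.16, with medians of 1.60 in WT and 2.62 in Sema3b-/- arthritis. Ccl5, Ccl12 and Ccl19 had an unadjusted p under 0.05, beside 2.43% of all genes above 0. Ccl8 measured 158, 241, 195 and 172 in WT control and 170, 104, 58.2 and 221 in Sema3b-/- control. Arthritis libraries held 445, 473, 2212, 4940 and 3049 in WT, and 2908, 3366, 2116, 3134 and 4851 in Sema3b-/-. Arthritis lay above control in both genotypes without overlap, WT replicates 1 and 2 were the lowest arthritis libraries, and the interaction was 1.72 (SE 0.89). The number of CC chemokines with an unadjusted p under 0.05 was 0 without WT arthritis replicate 1 or Sema3b-/- arthritis replicate 5, and 8 without WT arthritis replicate 4. Of all genes, 517 to 854 had one over the fits with 1 library left out.

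Cytokines were above 0 in all 12 members tested of 16 by limma, but in 7 of 12 by edgeR and by DESeq2 on the recovered reads, and in 8 of 12 with library weights. The median interaction was 0.47 by limma, 0.17 by DESeq2, 1.10 with a term for sex, 1.63 over the female libraries and 0.82 without WT arthritis replicate 3. Il33, an alarmin of stromal and epithelial cells, was the only one with an unadjusted p under 0.05 (1.43, SE 0.44). It measured 128, 140, 128 and 153 in WT control, and 105, 70.4, 73.6 and 138 in Sema3b-/- control. With arthritis the counts were 81.3, 114, 182, 236 and 106 in WT and 289, 462, 197, 186 and 186 in Sema3b-/-. Sema3b-/- arthritis lay above both control groups. Il1b, the interleukin matured by inflammasomes, measured 35.5, 45.8, 801, 937 and 339 in WT arthritis and 285, 325, 423, 281 and 556 in Sema3b-/- arthritis, with an interaction of 1.64 (SE 1.24), or 2.58 with a term for sex and 0.53 by edgeR.

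Acute phase and complement genes were above 0 in 13 of 17 members, with a median of 0.41. With a term for sex the median was 0.99, with 16 of 17 above 0, and over the female libraries it was 1.30. It was 0.23 without WT arthritis replicate 2, 0.78 without WT arthritis replicate 3 and 0.68 without Sema3b-/- control replicate 3. The complement genes C3 (1.23, SE 0.36), C1qa (0.75, SE 0.30) and C1ra (0.77, SE 0.32) had an unadjusted p under 0.05, beside 2.43% of all genes above 0. Saa3, an acute phase serum amyloid made in inflamed tissue, had an interaction of 2.32 on arthritis effects of 5.19 in WT and 7.51 in Sema3b-/-. That was the highest estimate of the list, and its unadjusted p was not under 0.05. The neutrophil-related members Lcn2, Hp and Slpi were at -0.50, -0.31 and -0.05, and with a term for sex at 0.03, 1.05 and 0.66. For matrix proteases and inhibitors the direction depended on the analysis. By limma 7 were above 0 and 10 below among the 17 tested of 18, with edgeR and with DESeq2 4 and 13, with a term for sex 14 and 3, and over the female libraries 15 and 2. Their median was -0.11, or 0.61 with a term for sex and 0.98 over the female libraries, and with 1 library left out it ran from -0.32 to 0.11. Mmp3, stromelysin, was the only one of them with an unadjusted p under 0.05 (2.36, SE 1.02). It measured 454, 130, 2638, 2760 and 1690 in WT arthritis and 1704, 3320, 2086, 1106 and 3795 in Sema3b-/- arthritis, against 98.5 to 157 in WT control and 40.5 to 66.5 in Sema3b-/- control. The control groups did not overlap and the arthritis groups did.

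**Figure D4:**
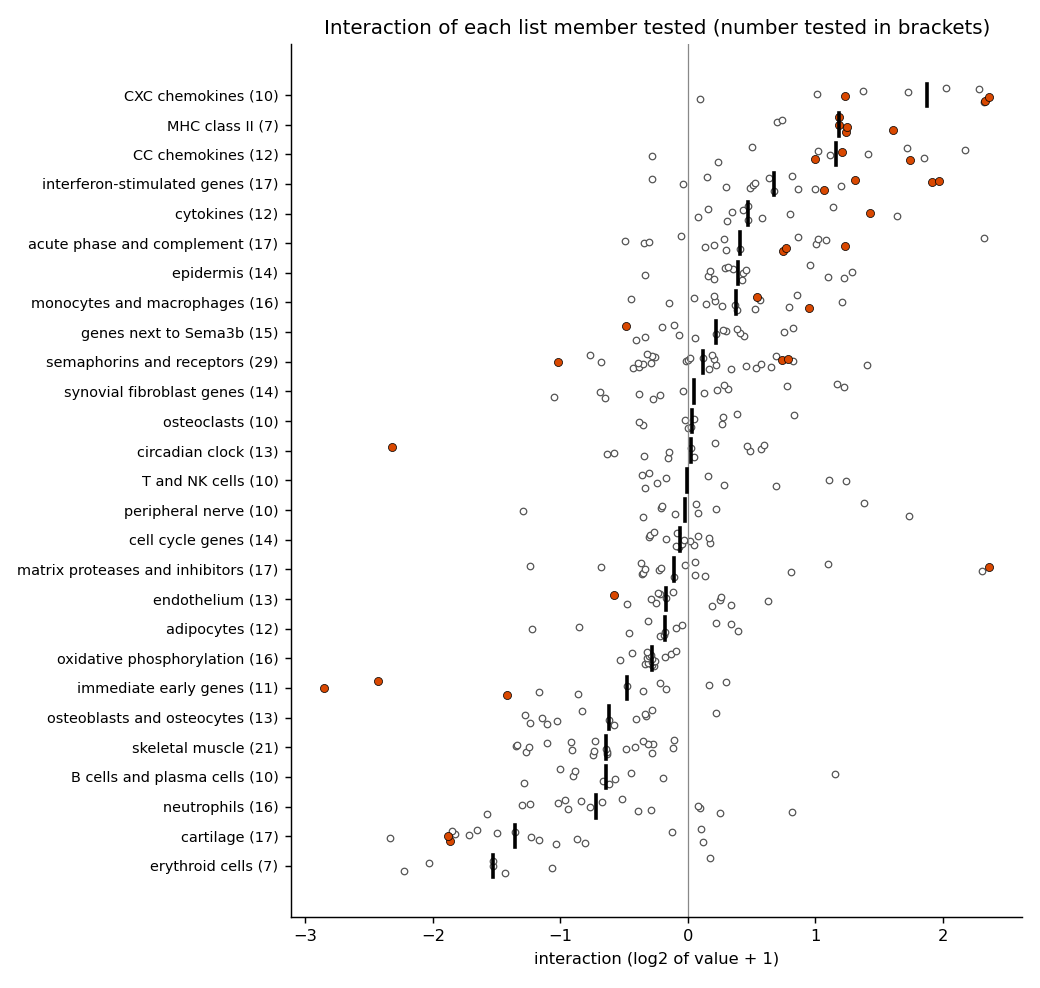
Interaction (log2 of value plus 1) of each list member tested, with 1 row per list, the number tested in brackets, filled points for an unadjusted p under 0.05 and a bar at the list median. The lists run from CXC chemokines at a median of 1.88 to erythroid genes at -1.53, and all members of the MHC class II, CXC chemokine and cytokine lists lie above 0 by limma.

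Immediate early genes, induced within minutes of a stimulus, went the other way: 9 of the 11 tested of 12 were below 0, with a median of -0.48. Their median arthritis effect was 1.06 in WT and 0.45 in Sema3b-/-. Fosb (-2.85, SE 1.23), Nr4a1 (-2.43, SE 0.82) and Atf3 (-1.42, SE 0.63) had an unadjusted p under 0.05, beside 2.37% of all genes below 0. Nr4a1, an orphan nuclear receptor, measured 84, 111, 107 and 114 in WT control and 170, 107, 133 and 167 in Sema3b-/- control. Its arthritis counts were 253, 358, 1142, 671 and 402 in WT and 47.9, 44.5, 366, 327 and 111 in Sema3b-/-. WT arthritis lay above WT control without overlap, and Sema3b-/- arthritis spanned the control range.

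Fosb measured 228, 157, 1098, 473 and 183 in WT arthritis and 14.3, 11.4, 280, 233 and 53.5 in Sema3b-/- arthritis. Sema3b-/- arthritis replicates 1 and 2, the libraries of the other title form, were the lowest for Fosb and Nr4a1. Without the 3 libraries of that form the list median was -0.16, with 7 of 11 below 0. In that fit 1 member had an unadjusted p under 0.05, beside 533 of all genes. The list median was -0.25 without WT arthritis replicate 3 and -0.27 without Sema3b-/- arthritis replicate 1. With a term for sex it was -0.90, with 10 of 11 below 0. The part of title form in the result was not tested further. Jun, an AP-1 member, had an interaction of -0.22, with a 95% interval from -0.68 to 0.24. Fos had one of -0.17, or -0.78 with a term for sex and 0.44 without the libraries of the other title form.

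No other circadian clock gene had an interaction as far below 0 as that of Per1, though Cry1 and Cry2 (-0.58) were also below 0. The median over the 13 tested of 14 was 0.02, with 7 above 0 (-0.14 and 4 above 0 with a term for sex). Per1 was the only member with an unadjusted p under 0.05 by limma, and with a term for sex there were 2, beside 1109 of all genes. Per2 was at 0.46, Per3 at 0.60, Cry1 at -0.63, Dbp at -0.15 and Nr1d1 at 0.57. With a term for sex Per3 was at 0.25, Cry1 at -1.31, Dbp at -0.47 and Nr1d1 at 0.34. Nr1d1, the clock repressor REV-ERB alpha, measured 651 to 1075 over the control libraries and 169 to 507 over the arthritis libraries, in both genotypes without overlap.

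Semaphorins and their receptors, the family of the deleted gene, had a median interaction of 0.12 over 29 tested of 31, with 17 above 0 and 12 below. Among ligands, Sema3c had -1.02 (SE 0.35), Sema4a 0.74 (SE 0.32) and Sema4c 0.78 (SE 0.33), each with an unadjusted p under 0.05. Of all genes 2.37% had one below 0 and 2.43% above 0. With a term for sex Sema3c was at -1.55 and Sema4c at 1.30. Sema3c, a secreted relative of Sema3b, measured 426, 362, 345 and 503 in WT control and 514, 320, 413 and 450 in Sema3b-/- control. In the arthritis groups it read 818, 363, 460, 282 and 352 in WT and 212, 159, 283, 207 and 231 in Sema3b-/-. The control groups overlapped, and in arthritis the ranges of the genotypes overlapped only between 282 and 283. Sema4a measured 177, 295, 135, 136 and 248 in WT arthritis and 306, 236, 355, 305 and 215 in Sema3b-/- arthritis. Sema4c measured 25.1, 41.4, 51.7, 36.6 and 42.5 in WT arthritis and 49.2, 63.5, 79.4, 53.1 and 78.5 in Sema3b-/- arthritis.

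Sema6c and Sema4b had among the lowest p for arthritis in the family, and their interactions were -0.77 (SE 0.47) and 0.00 (SE 0.43), the latter 0.46 with a term for sex. Of the receptors, the neuropilins Nrp1 and Nrp2, which bind class 3 semaphorins, were at 0.17 and 0.34. The class A plexins, their signalling partners, were at 0.53 (Plxna1), -0.43 (Plxna2), 0.66 (Plxna3) and -0.39 (Plxna4). No receptor had an unadjusted p under 0.05. The genes next to Sema3b on chromosome 9, checked because they can carry DNA of the line in which an allele was made, had a median of 0.22 over 15 tested of 19. Tmem115 (-0.49, SE 0.20) was the only one of them with an unadjusted p under 0.05.

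The lists that mark cell types of the paw showed the makeup of the tissue. Muscle genes took 2.66 to 5.38% of the values over the control libraries and 0.275 to 4.07% over the arthritis libraries, and epidermal genes 1.4 to 5.33% and 0.0564 to 2.31%. Both shares varied more within the arthritis groups than between genotypes. All 21 muscle genes had an interaction below 0 (median -0.64), none with an unadjusted p under 0.05. Without Sema3b-/- arthritis replicate 2, where muscle took the smallest share of its group, 12 of 21 were below 0, with a median of -0.12. The median was -1.33 with a term for sex and -2.25 over the female libraries, and -0.26 without the 3 libraries of the other title form, with 13 of 21 below 0. It was -0.37 without WT arthritis replicate 1, -0.26 without replicate 2 and -1.26 without replicate 3. Nuclear genes of oxidative phosphorylation were below 0 in 16 of 16 (median -0.28), none with an unadjusted p under 0.05, and their median was -0.47 with a term for sex. Epidermal genes had a median of 0.39, which was -0.23 with a term for sex and 1.56 without the libraries of the other title form.

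Cartilage genes had a median interaction of -1.35, with 15 of the 17 tested of 18 below 0. Col11a2 (-1.88, SE 0.77) and Cilp2 (-1.87, SE 0.48) had an unadjusted p under 0.05, beside 2.37% of all genes below 0. Cilp2, a matrix protein of cartilage, measured 176, 225, 315 and 265 in WT control and 380, 520, 579 and 211 in Sema3b-/- control. In arthritis it measured 146, 108, 270, 69.7 and 129 in WT and 81.6, 40.7, 63.3, 63.6 and 50.7 in Sema3b-/-. In Sema3b-/- arthritis lay below control without overlap, and in WT the groups overlapped. The list median was -0.38 with a term for sex, where Col11a2 was at -0.87, and the male Sema3b-/- control replicates 2 and 3 held the highest values of Cilp2. With 1 library left out, the number of cartilage genes with an unadjusted p under 0.05 ran from 1 to 10. It was 1 without Sema3b-/- control replicate 2, and 10 without replicate 4, the lowest of its group for Cilp2. With a term for sex it was 1. Of all genes, 517 to 854 had one with 1 library left out, and 1109 with a term for sex.

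Osteoblast genes (median -0.62, 12 of 13 below 0) and neutrophil genes (-0.72, 12 of 16 below 0) had no member with an unadjusted p under 0.05 by limma. By edgeR 3 osteoblast genes and by DESeq2 4 had one, beside 671 and 760 of all genes. The medians of osteoblast and neutrophil genes were 0.28 and 0.12 with a term for sex, so the sign depended on that term. Erythroid genes, which mark blood and marrow, had a median of -1.53 over 7 members tested, of which 6 were below 0. It was -2.37 without the libraries of the other title form, -1.01 without WT arthritis replicate 2 and -0.04 over the female libraries. Alas2, the heme synthesis enzyme of red cell precursors, measured 146 to 439 in WT control and 243 to 1308 in Sema3b-/- control, and its interaction was -1.43 with an SE of 1.30. B cell genes had a median of -0.64, with 9 of 10 below 0. It was -0.16 with a term for sex, with 6 of 10 below 0, and 0.54 over the female libraries.

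Monocyte and macrophage genes were above 0 in 14 of 16 (median 0.38, or 0.73 with a term for sex and 0.18 without WT arthritis replicate 2). Ccr2, the receptor for Ccl2 and Ccl7, had an interaction of 0.95 (SE 0.30) and an unadjusted p of 0.00555. It measured 160, 205, 186 and 180 in WT control and 202, 223, 128 and 110 in Sema3b-/- control. The arthritis values were 308, 290, 502, 522 and 465 in WT and 740, 765, 565, 705 and 668 in Sema3b-/-. Arthritis lay above control in both genotypes, and the arthritis libraries of the genotypes did not overlap. The share of all genes without such overlap was not computed. Mrc1, the mannose receptor, was the other member with an unadjusted p under 0.05 (0.54, SE 0.25), beside 2.43% of all genes above 0. Ccr2 stayed above 0 in all 32 alternatives, from 0.78 to 1.44, and was 1.18 with a term for sex. For 7 further lists the sign of the median depended on the analysis. The median was 0.05 for synovial fibroblast genes and 0.33 with a term for sex. For osteoclast genes it was 0.04, and 0.84 with that term, with 10 of 10 above 0. Endothelial genes had -0.17 and 0.47, T and NK cell genes -0.01 and 0.39, and cell cycle genes -0.06 and 0.06. Peripheral nerve genes had -0.02 and -0.25, and adipocyte genes -0.18 and -0.27. Each of these 7 medians had the other sign in at least 2 of the 32 alternatives.

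**Figure D5:**
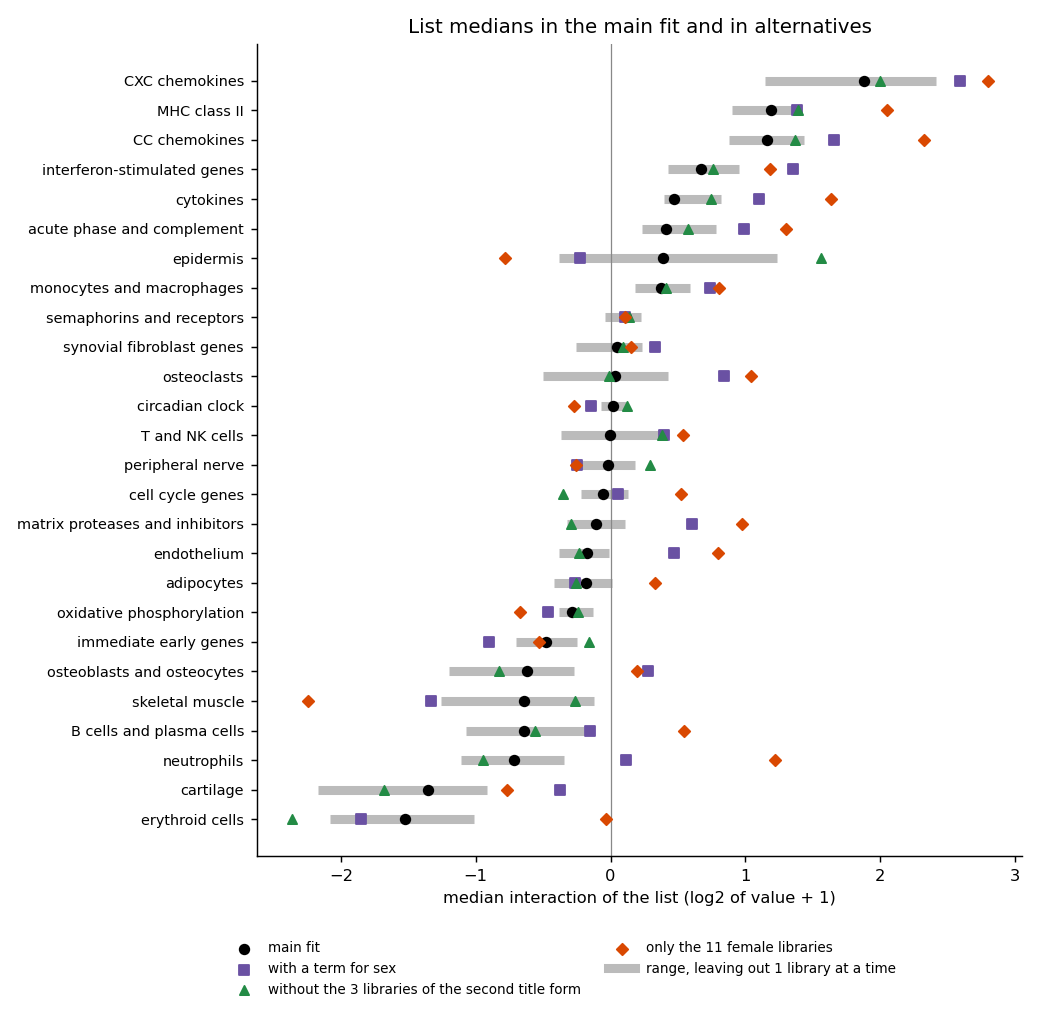
Median interaction of each list (log2 of value plus 1) in the reported analysis (black), with a term for sex, without the 3 libraries of the other title form, over the 11 female libraries, and the range with 1 library left out (grey). The medians of MHC class II, chemokines, cytokines and interferon-stimulated genes stay above 0 in each, and those of neutrophils, osteoblasts, epidermis, matrix proteases, endothelium, T and NK cells, cell cycle and circadian clock genes change sign with the term for sex.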

How the data were processed

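The table deposited by the authors holds, for 18585 genes and 18 libraries, a signal, the normalized count, made by dividing reads by a size factor per library. Per the submitters' processing notes, BWA, the mm10 genome and DESeq2 1.32 were used; the counter, the annotation and the handling of molecular barcodes were not given in the sources used here. No column lacked a sample (0). The 26 gene names that a spreadsheet had turned into dates were kept as they stood, with repeated names numbered. Whole reads were recovered within 0.02 of a read for 100% of values. Sema3b-/- arthritis replicate 5 has a column name ending in Ct but an arthritis title and treatment label, which were followed. The titles of Sema3b-/- control replicates 3 and 4 carry the same inner number, and the second was numbered 4.

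limma-trend (limma 3.58.1, R 4.3.3, robust empirical Bayes) was fitted to log2 of the value plus 1 with 1 mean per group, on genes with at least 10 in at least 4 libraries, two-sided, with Benjamini-Hochberg adjustment and a call at 0.05. The estimates of low genes depend on the pseudocount and the model, in either direction. Cxcl2 was at 1.73 by limma, -0.02 by edgeR and 0.12 by DESeq2, and Odf3l2 at -4.07 by limma and -5.94 by DESeq2. Alternatives included edgeR 4.0.16 and DESeq2 1.42.0 on the recovered reads; the code was tested on simulated data. Errors are SE from the fit and intervals are 95%. Xist and Y-linked genes gave the sex. The 32 pairs of libraries within groups each differed beyond counting noise, with 9.59 to 197 as chi-square per degree of freedom, and all libraries were kept as separate. Replicate numbers of the labels did not pair libraries: over 25 same-numbered pairs the correlation of deviations ran from -0.66 to 0.41, and 3 of 18 libraries were closest to their own number.

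The contrast, the gene lists and the rules were chosen with earlier results of these data known, so lists were described by counts and medians without a test. Genes were named as the 6 of lowest p in each direction whose mean reached 106, the median over tested genes, and whose name is no placeholder; from each response list the 2, and from each tissue list the 1, tested members of lowest p in the mean of both arthritis effects; Sema3b; and 5 sex-linked genes. Of these, 2 are not reported here. Further list members are named where their unadjusted p was under 0.05 or as examples, after their values were seen. Promoter stretches come from RefSeq windows, gene coordinates from GENCODE vM21 (mm10, 1-based).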

Additional observations from a re-analysis of the deposited data

Results flagged for a closer look

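Outlying libraries were looked for with Dixon's test at 95% among the named genes, and 19 of 214 pairs of gene and group were marked (8.88%), where chance marks about 1 in 20 groups.

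The sex-linked genes gave 11 of these marks, and in arthritis they single out the 1 female library of WT and the 1 male library of Sema3b-/-. In WT arthritis replicate 1, Xist was at 579.6 normalized counts (others 2.55 to 9.6), Ddx3y at 5.91, and Uty, Kdm5d and Eif2s3y at 0. In Sema3b-/- arthritis replicate 5, Xist was at 14.6 (others 324 to 476), Ddx3y at 806, Uty at 65.3, Kdm5d at 117 and Eif2s3y at 180.6. Eif2s3y was at 0 in WT control replicate 1, where the others were at 0.853 to 0.938, all within 1 read.

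Of the other genes, Cxcl13 was at 5.53 in WT control replicate 1 (others 13.1 to 15.3) and at 34.9 in Sema3b-/- arthritis replicate 4 (others 144 to 233). Krt10, a keratin of differentiated epidermis, was at 552 in Sema3b-/- arthritis replicate 2, where the others were at 7882 to 19740. D4Wsu53e was at 800.2 in WT arthritis replicate 3. In Sema3b-/- control, Cdk1 was at 524 in replicate 2, Itgb3 at 89.9 in replicate 4, Odf3l2 at 12.1 in replicate 1 and Ch25h at 1.19 in replicate 3.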

How the results depend on the processing

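The count of 0 genes called stayed 0 in 30 of 32 alternatives. It was 8 with DESeq2 on the recovered reads and 6 over the 11 female libraries (Il18bp, Zmynd15, Nova2, Ccl8, Rhof and Tnfaip6, all above 0), an alternative added after seeing the data in which WT arthritis holds 1 library, assumed to vary like the others. The number with an unadjusted p under 0.05, 663, became 1056 with library weights, 1109 with a term for sex, and 517 to 854 with 1 library left out. A fit with the replicate block called 0 genes, with 603 at an unadjusted p under 0.05; it left every estimate as it was, and the numbers are not shown to pair the libraries.

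Of 54 named genes, 38 kept their sign throughout, and 79 of 1725 values under the alternatives had the other sign; the cause was not tested. With 1 library left out, the interaction ran from -0.29 to 0.88 for Osm, -0.30 to 0.27 for Isg15, -0.018 to 0.19 for Pcna, -0.029 to 0.41 for Cdk1, -0.29 to 0.18 for Sema4b, -0.27 to 0.74 for Clec4d, -1.11 to 0.54 for Krt10, -0.29 to 0.050 for Vwf and -0.83 to 0.18 for Sema3b. With edgeR and DESeq2 it was -0.093 and -0.24 for Osm, -0.073 and -0.075 for Sema4b, and -0.27 and -0.30 for Clec4d. With pseudocounts of 5 and 10 it was 0.0098 and 0.057 for Isg15, -0.018 and -0.037 for Sema4b, and 0.061 and 0.14 for Sema3b. Upper quartile scaling gave 0.0079 for Isg15. A term for sex gave -0.073 for Osm, 0.70 for Isg15, 0.0088 for Itgb3, 0.20 for Uty and 0.35 for Eif2s3y. Library weights gave -0.0092 for Pcna, -0.046 for Cdk1, -0.30 for Sema4b, -0.12 for Clec4d and 0.10 for Csrp3. Weights with a term for sex gave 0.79 for Isg15, 0.026 for Jun, -0.0031 for Pcna, -0.18 for Sema4b, 0.27 for Uty, 0.23 for Kdm5d and 0.24 for Eif2s3y. Without the 3 libraries of the other title form it was -0.0019 for Pcna, -0.050 for Cdk1, 0.91 for Krt10 and 0.052 for Sema3b. Over the female libraries it was 0.62 for Isg15, 0.26 for Itgb3, 0.16 for Bglap, 0.48 for Vwf, 0.85 for Sema3b, 0.23 for Uty and 0.73 for Eif2s3y.

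Median interactions kept their sign in all 32 alternatives for CXC and CC chemokines, cytokines, acute phase and complement, interferon-stimulated, immediate early, monocyte and macrophage, erythroid, cartilage, muscle, oxidative phosphorylation and MHC class II genes. With 1 library left out, medians ran from 0.18 to 0.59 for monocyte and macrophage, -1.11 to -0.35 for neutrophil, -1.20 to -0.27 for osteoblast, -1.07 to -0.20 for B cell, -0.38 to -0.13 for oxidative phosphorylation and -0.39 to 1.23 for epidermal genes. The number of members with an unadjusted p under 0.05 moved with single libraries, for instance from 1 to 3 for immediate early genes. WT arthritis replicates 1 and 2 were the lowest of that group for H2-Aa, Il1b, Cxcl5, Ccl8 and Mmp3. They were never left out together, so these ranges do not cover that case. The shallowest library, Sema3b-/- control replicate 1, holds 1732783 reads, which limits genes at a few reads such as Oas1a, Mx2 and Odf3l2.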
